A study of Mus musculus with 5 samples.

Results

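Extracellular ATP is a danger signal that surface enzymes of immune cells turn, step by step, into the quieting nucleoside adenosine. The genes described here encode parts of that route in mouse CD4 T cells: Entpd1 (CD39), the ectoenzyme that cuts ATP and ADP to AMP; Nt5e (CD73), which cuts AMP to adenosine; P2rx7, an ATP-gated ion channel that can also kill T cells when NAD is released; and Dpp4 (CD26), a surface peptidase that in humans anchors adenosine deaminase. Members were all probe sets whose single gene symbol in the platform annotation was on a list of 6 genes. This gave 13 of 45037 probe sets and 4 of 18193 genes, with 3 probe sets each for Entpd1, Nt5e and P2rx7 and 4 for Dpp4. The adenosine receptor gene Adora2a and the NAD-consuming ectoenzyme gene Cd38 were not matched to a probe set through the annotation used and are not analysed here. The list was chosen by a reading of the signals of these same arrays, in all of the groups compared here, so the values are a description with no test.

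Affymetrix mouse arrays had been hybridised with RNA of splenic CD4 T cells from BALB/c mice, 1 array for each of 5 groups. The groups were TOFA effector Th1 cells, Rap effector Th1 cells, memory Th1 cells, control effector Th1 cells and naive CD4 T cells, and the labels name no genotype, age or sex for any of them. TOFA inhibits acetyl-CoA carboxylase, the enzyme of the first committed step of fatty acid synthesis, while the labels do not expand Rap. The same Th1 culture (IL-12 at 10 ng/ml with IL-2 at 15 ng/ml, for 5 days) is attached to all 5 samples, although only the effector samples are described as cultured cells; the labels give neither a dose of TOFA or Rap nor the origin of the memory cells.

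Signals below are linear and quantile normalized, so that all arrays share 1 distribution. A value under the 40th percentile of all signals (43.4) was raised to that floor before a fold was taken, a gene at the floor on both arrays was not compared, and a difference counted as higher or lower from 2-fold. The brightest probe set stood for a gene. With 1 array per group no spread between replicates, SD or p-value exists, and every value is only as precise as a single array allows. Cells were bulk samples, in which fewer cells of a type and less RNA per cell cannot be told apart. The defining T cell genes Cd3d, Cd3e, Cd3g and Cd4 were above the floor on all 5 arrays. Markers of other cells were not absent: summed over 10 myeloid genes, the signal was 607 in TOFA effector, 314 in Rap effector, 79644 in memory, 322 in control effector and 6042 in naive cells. Over 11 B cell genes the sums were 2593, 3097, 59121, 2174 and 34375 in the same order, which sets the memory and naive arrays apart from the effector arrays.

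**Figure D1:**
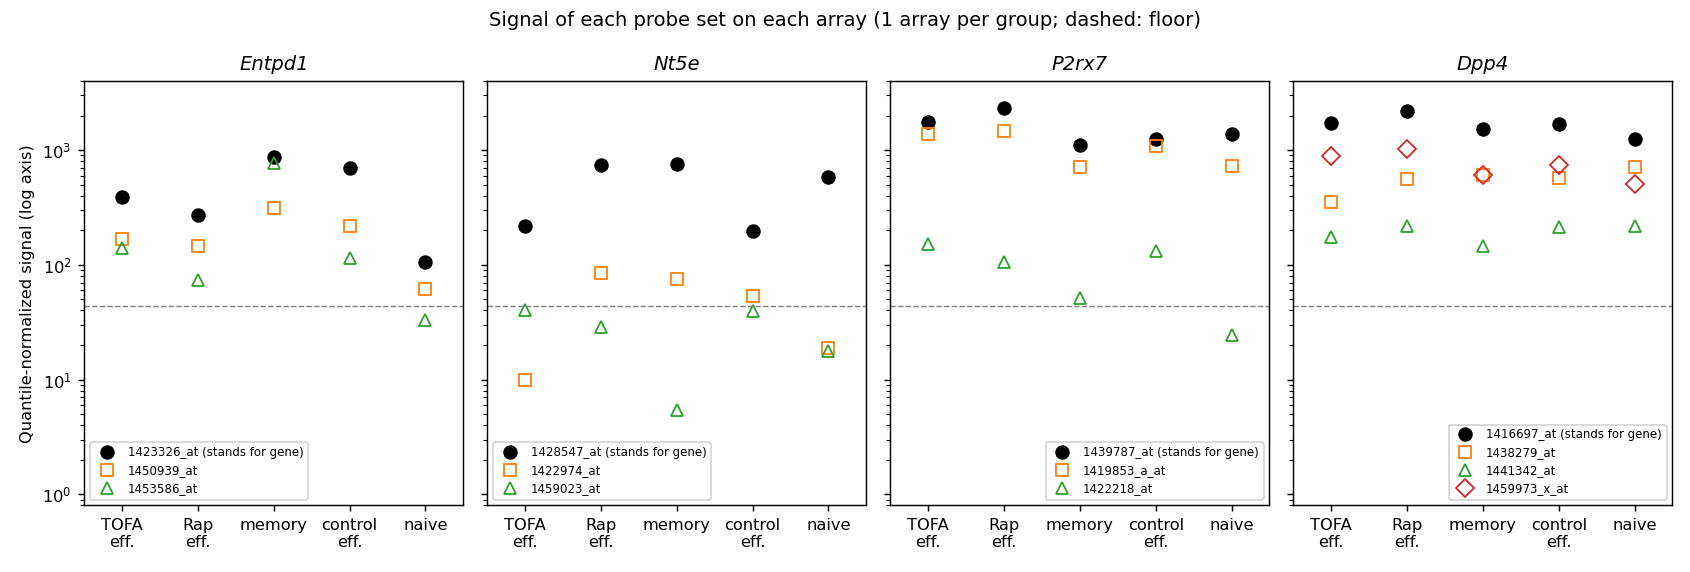
Quantile-normalized signal (log axis) of each probe set of Entpd1, Nt5e, P2rx7 and Dpp4 on the 5 arrays, 1 array per group. Filled circles mark the probe set that stands for the gene and the dashed line is the floor of 43.4. Entpd1 is lowest in naive cells on all 3 probe sets, while the brightest Nt5e probe set is high in Rap effector, memory and naive cells and low in TOFA and control effector cells.

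In the 6 comparisons made, Entpd1 and Nt5e were the genes with 2-fold differences on their brightest probe sets, so the DNA before their starts is shown for reference. The sequences are the 250 bases before each start that RefSeq gives on GRCm38.p6, a C57BL/6J genome and not BALB/c, read 5′ to 3′ on the gene's strand. Capitals mark the letters of the GC box GGGCGG (bound by SP1-type factors) or of the cAMP response element core TGACG, on either strand, so that GGGCGG also appears as CCGCCC and TGACG as CGTCA. Nt5e has 1 start in the table, with the window chr9:88327359-88327608 on the plus strand. Entpd1 has 2, with the upstream window chr19:40612116-40612365 and the downstream window chr19:40659520-40659769, both on the plus strand.
Nt5e: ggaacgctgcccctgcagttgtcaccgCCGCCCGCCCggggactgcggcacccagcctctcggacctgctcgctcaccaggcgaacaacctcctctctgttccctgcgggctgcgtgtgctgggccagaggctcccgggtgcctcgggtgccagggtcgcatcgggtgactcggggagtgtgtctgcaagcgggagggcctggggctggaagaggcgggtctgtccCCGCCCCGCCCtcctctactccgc
Entpd1, upstream start: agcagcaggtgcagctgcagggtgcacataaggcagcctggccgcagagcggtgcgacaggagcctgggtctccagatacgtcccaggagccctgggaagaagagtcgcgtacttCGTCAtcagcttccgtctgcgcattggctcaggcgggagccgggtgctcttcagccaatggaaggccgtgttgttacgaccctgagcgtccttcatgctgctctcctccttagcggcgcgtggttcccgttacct
Entpd1, downstream start: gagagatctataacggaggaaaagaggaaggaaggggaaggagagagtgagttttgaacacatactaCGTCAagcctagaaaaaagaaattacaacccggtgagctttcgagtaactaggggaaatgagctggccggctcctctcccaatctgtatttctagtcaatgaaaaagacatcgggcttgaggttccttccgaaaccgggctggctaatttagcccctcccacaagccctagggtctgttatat
The Nt5e window held 4 GC box matches, in 2 overlapping pairs, and its G and C content was 72%, against a median of 52.4% over 32851 windows of the same length. A GC box was found in 32.7% of all windows. Each Entpd1 window held 1 match to the cAMP response element core, which 17.8% of all windows hold, and no GC box. G and C made up 62.4% of the upstream Entpd1 window and 47.2% of the downstream one. The other motifs searched were ACGTG (hypoxia response core), TGTTTAC (FOXO), CTTTGA (TCF/LEF) and CACGTG (E-box, which contains ACGTG). Neither gene's windows held any of these 4 strings of letters, which 16.6%, 3.17%, 13.8% and 6.02% of all windows hold. Of the windows of P2rx7 and Dpp4, the upstream one of P2rx7 held 2 GC boxes, its downstream one held 1 CTTTGA, and that of Dpp4 held none of the 6 motifs. A match is a description of the letters, and the arrays do not say which start was used.

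Entpd1 was low in naive cells and higher on every other array. Its brightest probe set, 1423326_at, had a signal of 391 in TOFA effector cells, 272 in Rap effector cells, 866 in memory cells, 699.6 in control effector cells and 105 in naive cells. The order ran from memory through control, TOFA and Rap effector to naive cells, and the steps between neighbours were 1.24-fold, 1.79-fold, 1.44-fold and 2.59-fold, so that only the last one passed 2-fold. Set against naive cells, Entpd1 was 6.66-fold higher in control effector cells (log2 difference 2.73) and 8.24-fold higher in memory cells (3.04). Within the effector arrays, Rap cells were 2.57-fold lower than control cells (-1.36), and TOFA cells were 1.79-fold lower (-0.84), under the 2-fold mark.

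The other probe sets of Entpd1 gave the same direction against naive cells and smaller gaps between Rap and control effector cells. TOFA and Rap effector cells were 1.16-fold apart on 1450939_at and 1.93-fold on 1453586_at, higher in TOFA on both. Probe set 1450939_at, designed from the same transcript entry, had 169 in TOFA effector, 146 in Rap effector, 315 in memory, 219.8 in control effector and 62.0 in naive cells. Its Rap and control signals were 1.5-fold apart, lower in Rap. Probe set 1453586_at, designed from another transcript, had 141 in TOFA effector, 73.0 in Rap effector, 777 in memory, 115 in control effector and 32.8 in naive cells, the last one under the floor. There the memory array stood alone, 6.77-fold above control effector cells and at least 17.9-fold above naive cells, whereas the brightest probe set put memory and control effector cells 1.24-fold apart. On 1453586_at the TOFA signal was 1.23-fold above the control signal, the opposite direction to the other probe sets. All 3 probe sets were lower in Rap than in control effector cells, although only the brightest by 2-fold.

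Entpd1 is also made by B cells, macrophages, dendritic cells, endothelium and regulatory T cells, so their markers stand beside it. In memory cells, where Entpd1 was highest, the summed signal was 79644 over the 10 myeloid genes, 12454 over 7 dendritic cell genes and 2334 over 8 stromal and endothelial genes, against 6042, 1751 and 1239 in naive cells. All 10 myeloid markers were above the floor in memory cells, and 9 of 10 in naive cells. Among them the macrophage genes Adgre1 (F4/80) and Csf1r (the CSF1 receptor) had signals of 7450 and 6232 in memory cells, against 66.6 and 96.3 in naive cells. In control effector cells, where Entpd1 was also far above naive cells, 7 of the 10 myeloid markers were at the floor and the sum was 322. The part of other cells in the Entpd1 signal of memory cells was not tested. For the control effector array the myeloid and B cell sums (322 and 2174) were below those of naive cells (6042 and 34375). The stromal and endothelial sum was also below (502 against 1239), but Pecam1 alone made up 232 and 1005 of it. Of the 5 stromal and endothelial genes compared, 3 had a higher and 2 a lower signal in control effector than in naive cells. The dendritic cell sum was not below that of naive cells, at 1852 in control effector and 1751 in naive cells. Most of each dendritic cell sum came from H2-Ab1, an MHC class II gene, at 10952 in memory, 1576 in control effector and 1424 in naive cells. The part of these cells in the Entpd1 difference between control effector and naive cells was not tested either.

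**Figure D2:**
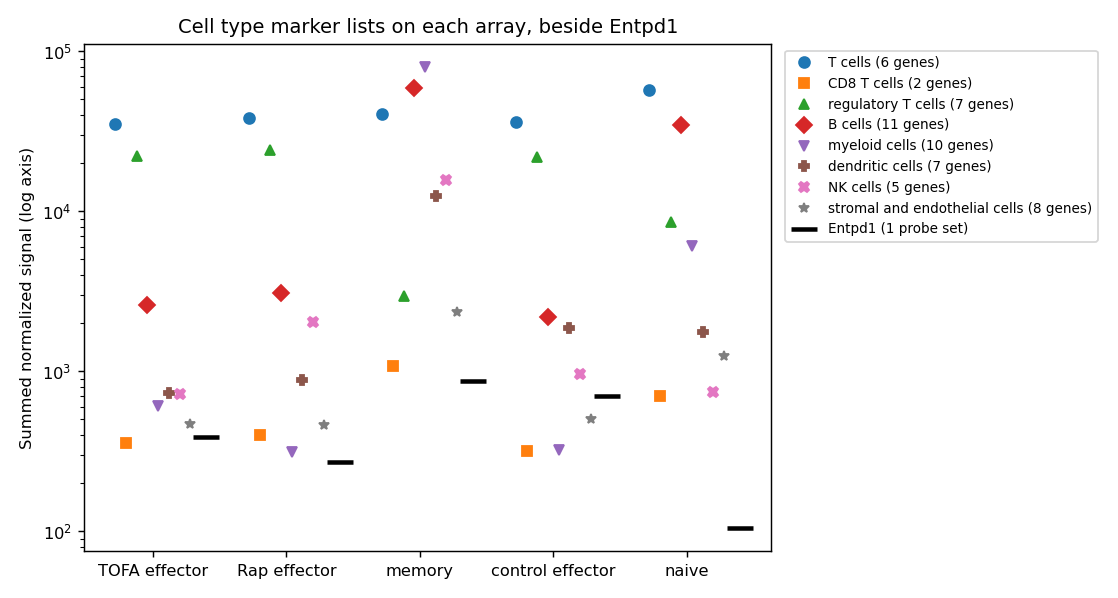
Summed quantile-normalized signal (log axis) of each cell type marker list on the 5 arrays, with the brightest Entpd1 probe set as black bars. Myeloid, dendritic and B cell sums are highest in memory cells (79644, 12454 and 59121), and the effector arrays have B cell sums between 2174 and 3097.

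Regulatory T cells are the classic CD4 cells that carry both CD39 and CD73. Foxp3, their defining transcription factor gene, had a signal of 124 in TOFA effector, 95.6 in Rap effector, 44.7 in memory, 52.6 in control effector and 275 in naive cells. The order of Foxp3, highest in naive and lowest in memory cells, was thus the reverse of that of Entpd1 at both ends. The sum over 7 regulatory T cell genes was 22284 in TOFA effector, 24119 in Rap effector, 2959 in memory, 21827 in control effector and 8603 in naive cells. Most of it in effector cells came from genes that activated T cells also express, such as Il2ra (the alpha chain of the IL-2 receptor), at 7160, 8999 and 4765 in TOFA, Rap and control effector cells, and Tnfrsf18 (GITR), at 10356, 8828 and 11077. Of the 7 genes, 3 were higher and 3 lower in control effector than in naive cells, beside 15.9% and 11.4% of all genes. In memory against naive cells 0 were higher and 5 lower, beside 12.6% and 4.14%. The part of regulatory T cells in the Entpd1 signal was not tested.

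Nt5e separated the arrays along another line. Its brightest probe set, 1428547_at, had a signal of 220.1 in TOFA effector cells, 739.8 in Rap effector cells, 754 in memory cells, 197 in control effector cells and 583 in naive cells. Rap effector cells thus lay beside memory and naive cells, and TOFA effector cells beside control effector cells. Memory and Rap cells were 1.02-fold apart and TOFA and control effector cells 1.12-fold, while TOFA effector cells lay 2.65-fold below naive cells, the next array up. Nt5e was 3.76-fold higher in Rap than in control effector cells (log2 difference 1.91). It was 3.36-fold lower in TOFA than in Rap effector cells (-1.75), 3.84-fold higher in memory than in control effector cells (1.94) and 2.97-fold lower in control effector than in naive cells (-1.57). The memory and naive arrays also held more signal of other cells. Over 2 CD8 T cell genes the sums were 354 in TOFA effector, 400 in Rap effector, 1072 in memory, 317 in control effector and 703 in naive cells. The B cell sums were 2593, 3097, 59121, 2174 and 34375 in the same order. The part of other cells in the Nt5e differences was not tested.

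Among all genes, the Nt5e difference between Rap and control effector cells was one of the larger ones. It stood 11th from the highest of 12851 genes compared, and 0.552% of genes differed by more in either direction. Between TOFA and Rap effector cells it was the 15th from the lowest of 12802, with 0.687% of genes further apart. Both comparisons hold the same Rap array, so they are not separate observations of Nt5e. Between memory and control effector cells 11.6% of genes were further apart, and between control effector and naive cells 13.8%.

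The Nt5e pattern rested on that 1 probe set. Probe set 1422974_at was near or under the floor on every array, with 9.95 in TOFA effector, 85.3 in Rap effector, 74.8 in memory, 53.4 in control effector and 18.9 in naive cells. It was higher in Rap than in control effector cells by 1.60-fold and higher in memory than in control effector cells by 1.40-fold. It was lower in TOFA than in Rap effector cells by at least 1.97-fold. Naive cells, however, had a signal under the floor there, against 583 on the brightest probe set. Control effector cells were at least 1.23-fold above naive cells on 1422974_at, the opposite direction to the brightest probe set. Probe set 1459023_at was under the floor on all 5 arrays, between 5.38 and 40.8, and gave no comparison. With all probe sets of the gene averaged, none of the 4 Nt5e differences above stayed past 2-fold: they were 0.86 for Rap minus control effector, -0.91 for TOFA minus Rap effector, 0.81 for memory minus control effector and -0.42 for control effector minus naive. The average takes in the dimmer probe sets, which were at or close to the floor. Averaging likewise brought Entpd1 in Rap minus control effector cells to -0.87 and put memory minus control effector at 1.19.

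Entpd1 and Nt5e, which act one after the other on ATP, stood on opposite sides in Rap and control effector cells. In Rap cells the Entpd1 signal was 272 and the Nt5e signal 739.8, against 699.6 and 197 in control effector cells. Control effector and naive cells were also split in opposite directions on the brightest probe sets, with Entpd1 higher and Nt5e lower in control effector cells. Memory cells had both genes high, at 866 and 754. The signals of different probe sets are not on a common scale, so the levels of the 2 genes are not compared with each other.

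**Figure D3:**
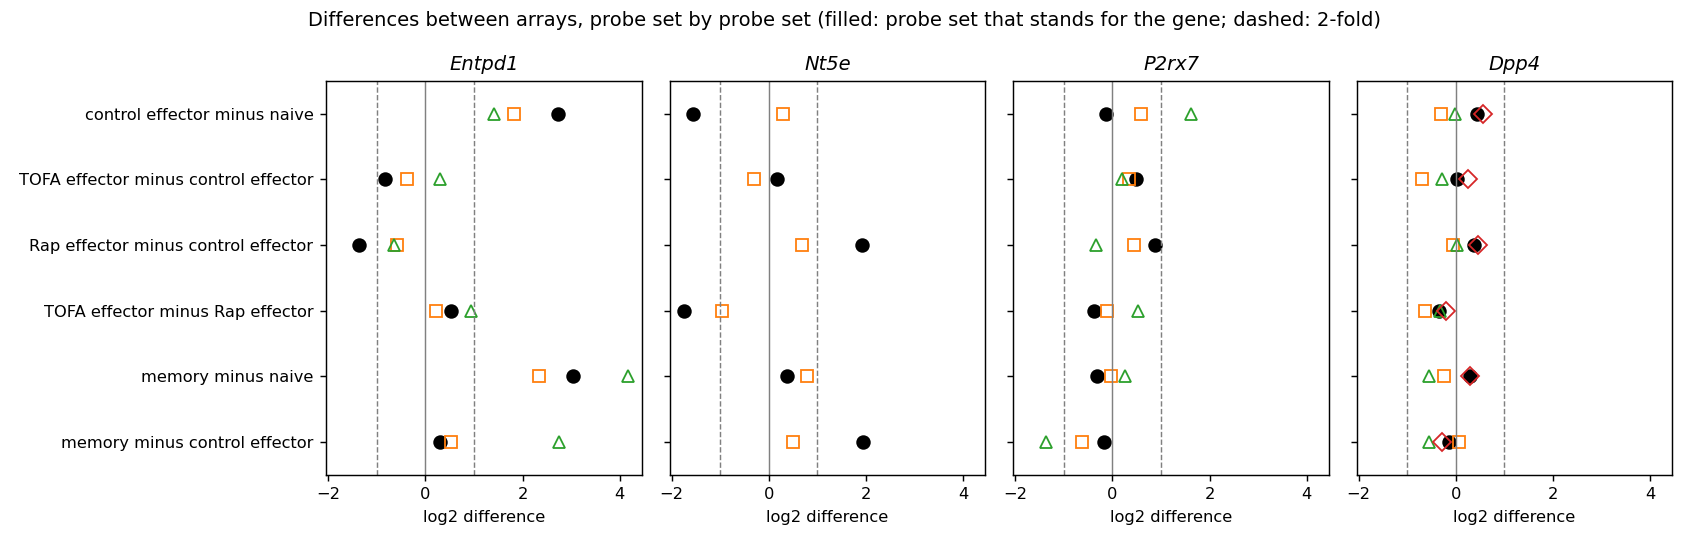
Log2 difference (x axis) in each of the 6 comparisons (rows) for every probe set compared, with dashed lines at 2-fold and filled circles for the probe set that stands for the gene. In Rap minus control effector cells the filled Entpd1 point lies at -1.36 and the filled Nt5e point at 1.91, and the brightest P2rx7 and Dpp4 probe sets stay inside 2-fold in all 6 comparisons.

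P2rx7, the ATP-gated channel, differed little between arrays on its bright probe sets. Probe set 1439787_at had a signal of 1772 in TOFA effector, 2309 in Rap effector, 1108 in memory, 1256 in control effector and 1386 in naive cells. It was highest in Rap and next in TOFA effector cells, and the largest step between neighbours in the order was 1.30-fold. Rap cells were 1.84-fold above control effector cells (log2 difference 0.88) and TOFA cells 1.41-fold (0.50), and the ends of the order, Rap effector and memory cells, were 2.08-fold apart.

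Probe set 1419853_a_at of P2rx7 had 1372 in TOFA effector, 1479 in Rap effector, 708 in memory, 1088 in control effector and 720.2 in naive cells. It kept Rap and TOFA effector cells on top, but here control effector cells were 1.51-fold above naive cells, whereas on 1439787_at they were 1.10-fold below them. The dim probe set 1422218_at had 152 in TOFA effector, 105 in Rap effector, 51.8 in memory, 133 in control effector and 24.7 in naive cells, the last one under the floor. Control effector cells were at least 3.07-fold above naive cells on it, and it was 2.57-fold lower in memory than in control effector cells. For Rap against control effector cells it went the other way from the bright probe sets, 1.26-fold lower in Rap.

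Dpp4 stayed within 2-fold on its brightest probe set across all 5 arrays. Probe set 1416697_at had a signal of 1709 in TOFA effector, 2190.4 in Rap effector, 1529 in memory, 1685 in control effector and 1246 in naive cells, a span of 1.76-fold with Rap highest and naive lowest. Probe set 1459973_x_at, which can match several transcripts, had 882 in TOFA effector, 1014 in Rap effector, 612 in memory, 745 in control effector and 504 in naive cells. These 2 probe sets shared their highest and lowest arrays. Probe set 1438279_at differed, with 355 in TOFA effector, 555 in Rap effector, 606 in memory, 577 in control effector and 716 in naive cells, so that naive was its highest array and TOFA its lowest, 2.02-fold apart. Probe set 1441342_at lay between 147, in memory cells, and 219, in Rap effector cells. No pair of arrays in the 6 comparisons reached 2-fold on any Dpp4 probe set.

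Counted over the 4 genes, the members past 2-fold were few and went both ways. In control effector against naive cells 1 was higher and 1 lower, beside 27.3% of all genes past 2-fold, 15.9% higher and 11.4% lower. In TOFA against control effector cells none of the 4 genes was past 2-fold, beside 4.62% of all genes (2.47% higher and 2.15% lower). In Rap against control effector cells 1 was higher and 1 lower, beside 5.73% of all genes, 1.82% higher and 3.91% lower. In TOFA against Rap effector cells 1 was lower, beside 4.63% of all genes, 3.28% higher and 1.35% lower. In memory against naive cells and in memory against control effector cells 1 was higher in each, Entpd1 and Nt5e in turn, beside 16.7% and 28.6% of all genes. In the first 12.6% of all genes were higher and 4.14% lower, and in the second 14.5% and 14.1%. The TOFA and Rap comparisons share the control array.

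The member medians on the log2 scale were 0.15 for control effector minus naive, 0.09 for TOFA and 0.63 for Rap minus control effector, -0.37 for TOFA minus Rap effector, 0.33 for memory minus naive and 0.08 for memory minus control effector. The medians of all genes compared lay between -0.05 and 0.04. Of the 12 member probe sets compared, 5 were past 2-fold in control effector against naive cells, beside 26.7% of all probe sets. None was in TOFA against control effector cells (background 4.62%), 2 were in Rap against control effector cells (5.63%), and 1 was in TOFA against Rap effector cells (4.23%). In memory against naive cells 3 were past 2-fold (16.3%), and in memory against control effector cells 3 as well (25.9%).

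**Figure D4:**
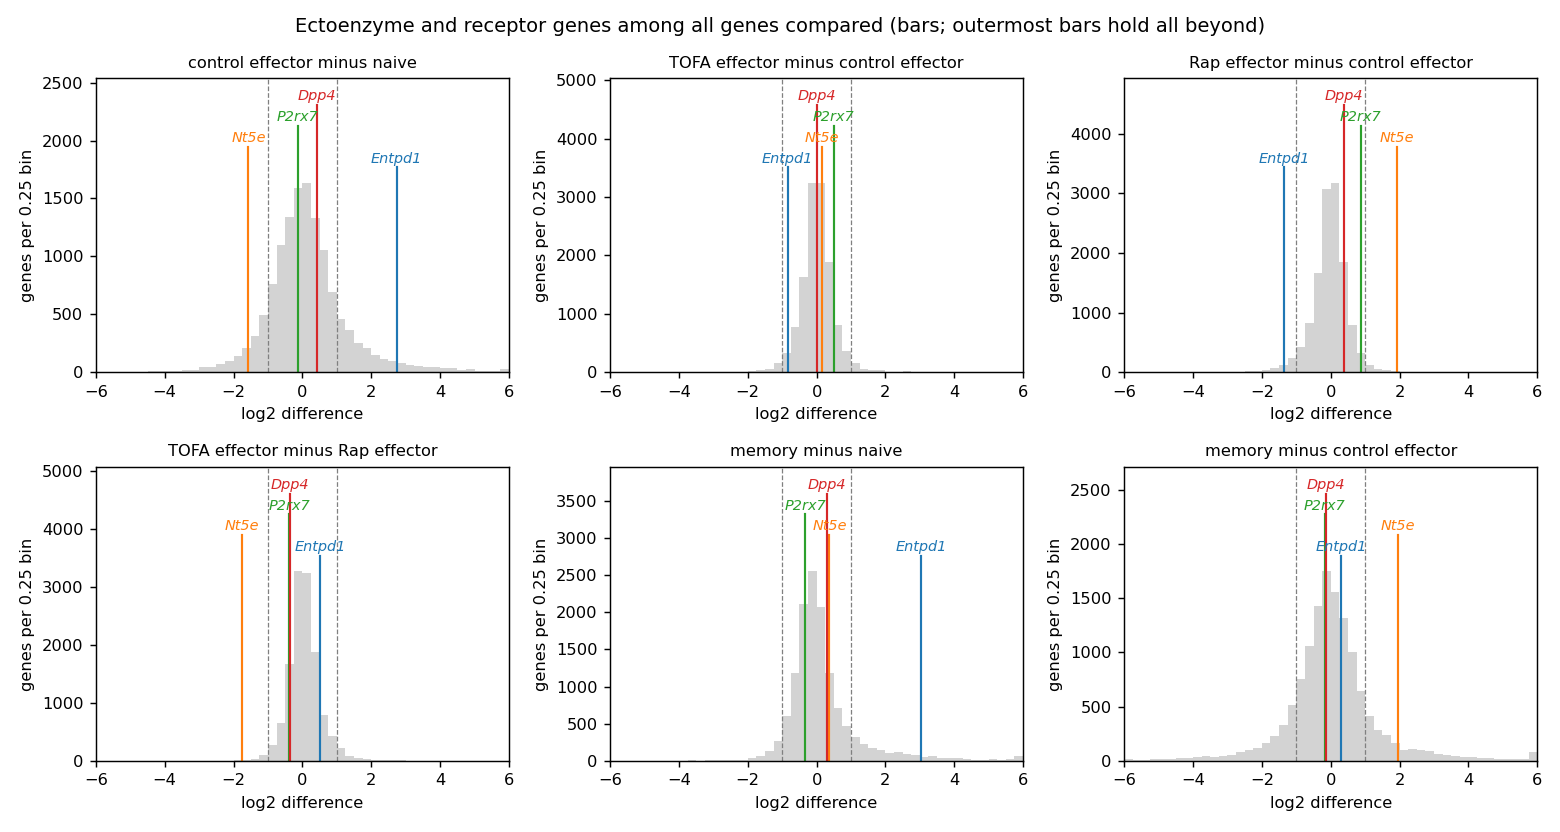
Histograms of the log2 difference of all genes compared (grey bars, number of genes per bin of 0.25), with a line for each of Entpd1, Nt5e, P2rx7 and Dpp4 and dashed lines at 2-fold. Nt5e lies at 1.91 in Rap minus control effector cells, beyond all but 0.552% of genes, while the 4 genes lie between -0.84 and 0.50 in TOFA minus control effector cells.

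The rest of the purine pathway was followed in 9 lists of 108 entries, of which 94 were measured. They cover other nucleotide and adenosine receptors, other surface enzymes, adenosine uptake and breakdown, ATP release, the relatives of Dpp4, partners of P2rx7, and the cAMP route by which adenosine receptors signal. Pooled, 13 of 78 genes compared were higher and 9 lower in control effector against naive cells, 28.2% against the 27.3% of all genes. The TOFA comparison with control effector cells had 3 higher and 2 lower of 78 (6.41% against 4.62%), and the Rap comparison 1 higher and 5 lower of 76 (7.89% against 5.73%). TOFA against Rap effector cells had 5 higher and 0 lower of 75 (6.67% against 4.63%). Memory cells had 19 higher and 4 lower of 79 against naive cells (29.1% against 16.7%), and 19 higher and 6 lower of 83 against control effector cells (30.1% against 28.6%). These splits moved with the scaling: with arrays scaled to equal medians they were 16 higher and 9 lower against naive cells and 15 and 13 against control effector cells, and with the values as deposited 24 and 4, and 28 and 4. In every comparison, a gene at the floor on 1 array could enter the count only by being brighter on the other. P2ry13, Gja1 and Prkar1b, at the floor in naive cells, were among those counted as higher in memory cells in this way.

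Among surface enzymes and ATP release channels, Bst1 and Gja1, each at the floor in naive cells and above it in control effector cells, were lower in Rap than in control effector cells. Bst1, a surface enzyme that like CD38 consumes NAD, had 130 in TOFA effector, 32.7 in Rap effector, 52.6 in memory, 175 in control effector and 2.13 in naive cells. It was at least 4.03-fold lower in Rap than in control effector cells. Gja1 encodes connexin 43, whose hemichannels can release ATP, and had 448 in TOFA effector, 105 in Rap effector, 1341 in memory, 249 in control effector and 26.7 in naive cells. It was 2.37-fold lower in Rap than in control effector cells and 4.26-fold higher in TOFA than in Rap effector cells, on a probe set that can match several transcripts. The Gja1 signal of memory cells stands beside sums of 79644 over myeloid and 2334 over stromal and endothelial genes there, whose part was not tested. Panx1, which encodes an ATP release channel of T cells, lay between 939 and 1438 on all arrays. Lrrc8d, a subunit of volume-regulated anion channels, was 2.19-fold higher in TOFA than in control effector cells (1112 against 509).

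Of the genes of adenosine uptake and breakdown, 3 were higher and 2 lower of 17 compared in control effector against naive cells, beside 27.3% of all genes past 2-fold, and the list median was 0.10. In memory against naive cells 3 were higher and 2 lower of 15, beside 16.7% of all genes, and in memory against control effector cells 2 were higher and 1 lower of 17, beside 28.6%. Ahcy, which removes the adenosine-containing by-product of methylation reactions, had 14697 in control effector cells, against 1288 in naive cells. The AMP deaminase genes Ampd1 and Ampd3 went the other way, at least 21.4-fold and 9.76-fold lower in control effector than in naive cells. The other AMP deaminase gene listed, Ampd2, had 2482 in control effector and 2489 in naive cells. Ampd3 was 2.35-fold higher in TOFA than in control effector cells (230.1 against 98.0). It was the 1 gene of 16 compared there that passed 2-fold, beside 4.62% of all genes. Against control effector cells, none of 16 genes passed 2-fold in Rap cells, beside 5.73% of all genes. Ada, adenosine deaminase itself, had 568 in TOFA effector, 567 in Rap effector, 1302 in memory, 699 in control effector and 513 in naive cells, and was 2.54-fold higher in memory than in naive cells. The myeloid marker sums of 79644 in memory and 6042 in naive cells stand beside this Ada difference, and their part in it was not tested.

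Several P2 receptors for extracellular nucleotides were higher in memory cells. Against control effector cells, 4 of 9 genes compared were higher and 1 lower, beside 14.5% and 14.1% of all genes. Of the 13 genes measured, 6 were at the floor in control effector cells. Such genes, P2ry12 and P2ry6 among them, could enter this count only by being brighter in memory cells. Against naive cells, 6 of 8 genes compared were higher and none lower, beside 12.6% and 4.14% of all genes. However, 11 of the 13 measured were at the floor in naive cells, so most could enter this count only by being brighter in memory cells. P2ry13, an ADP receptor, was at least 41.5-fold higher (1800.0 against 25.4), and P2ry12, the ADP receptor of platelets and some macrophages, was at least 17.3-fold higher (751 against 11.6). P2rx4, an ATP-gated channel and relative of P2rx7, had 2041 in memory cells, against 461 in control effector and 516 in naive cells. Casp1 and Nlrp3, the inflammasome protease and sensor that act downstream of P2RX7 in macrophages, were 11.4-fold and 3.48-fold higher in memory than in naive cells. The myeloid marker sums of 79644 in memory and 6042 in naive cells stand beside all of these, and their part in them was not tested. P2rx7 itself was not among the genes past 2-fold there (1108 in memory against 1386 in naive cells). Casp1 was also 2.31-fold higher in TOFA than in control effector cells (980.3 against 425), with myeloid sums of 607 and 322. Adora3, the 1 other adenosine receptor gene measured, was above the floor in TOFA effector cells alone, at 71.0.

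Among cAMP signalling genes, Crem, a cAMP-inducible repressor of cAMP-driven transcription, was lower in Rap effector cells. It had 1468 in TOFA effector, 670.2 in Rap effector, 218 in memory, 1730 in control effector and 232 in naive cells. Crem was 2.58-fold lower in Rap than in control effector cells. Its lowest signals were in memory and naive cells, the highest and the lowest arrays for Entpd1. Pde2a, a phosphodiesterase that breaks down cAMP and cGMP, was lower than in control effector cells in both treated arrays, by 2.72-fold in TOFA (402 against 1095) and 2.23-fold in Rap (490.2 against 1095), on a probe set that can match several transcripts. Pde4b, a cAMP phosphodiesterase, had 975 in TOFA effector, 1169 in Rap effector, 4652 in memory, 1247 in control effector and 5022 in naive cells. Adcy9, an adenylyl cyclase, was 2.57-fold higher in Rap than in control effector cells (293 against 114).

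**Figure D5:**
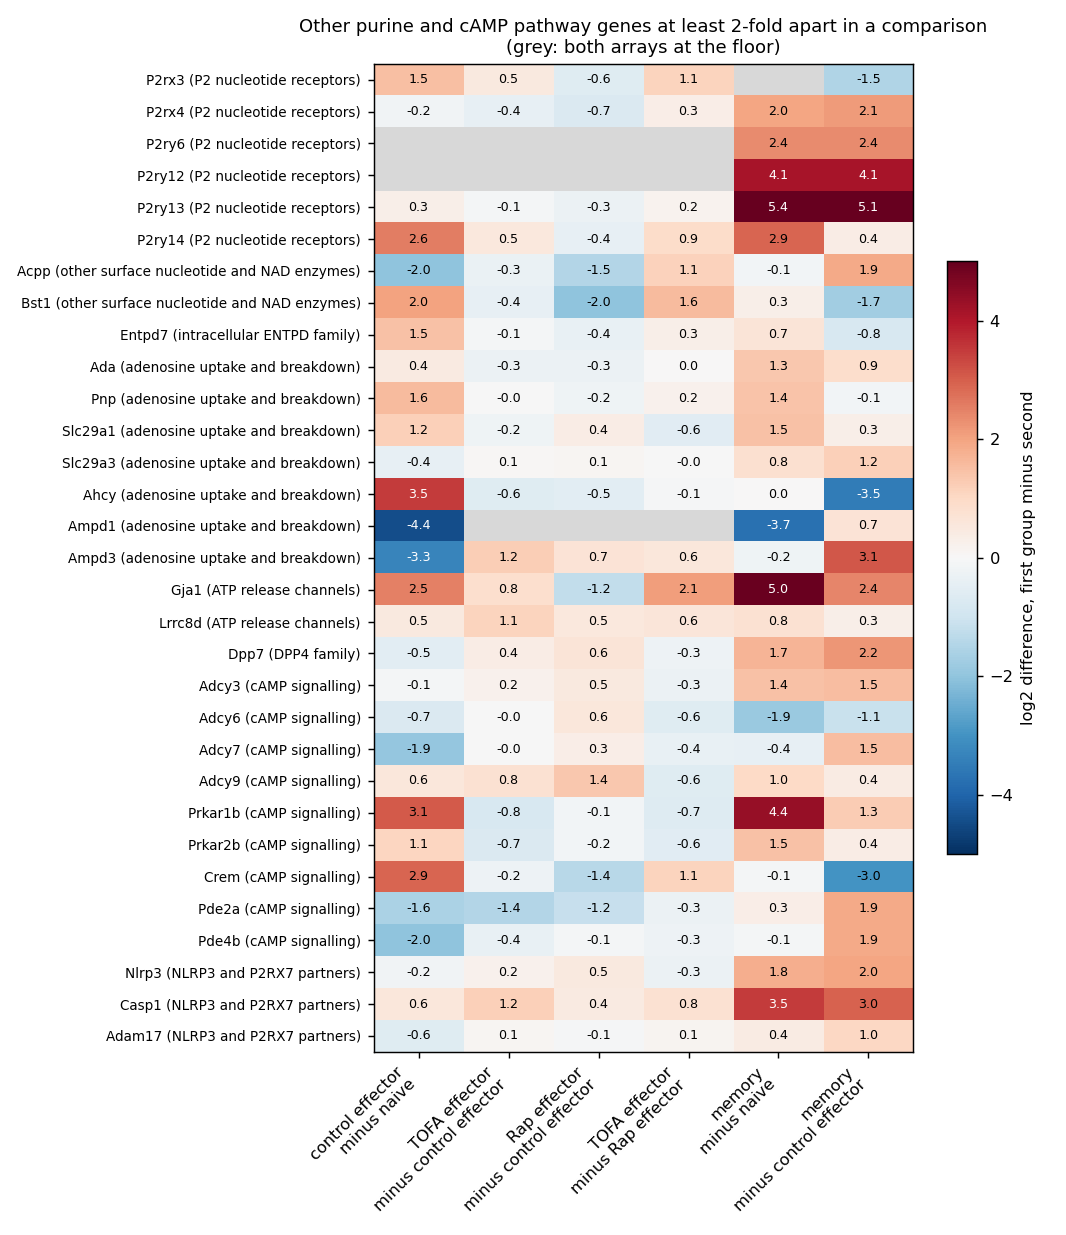
Log2 difference (colour and number) of the other pathway genes named by the selection rule, in rows with their list, for the 6 comparisons in columns; grey cells had both arrays at the floor and colours saturate at 5. The memory columns hold the largest positive values, such as 5.37 for P2ry13 against naive cells, and Bst1, Gja1 and Crem are at -2.01, -1.25 and -1.37 in Rap minus control effector cells.

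Likeness of other genes to the members over the 5 arrays was the Euclidean distance between log2 profiles centred on their own mean, among 5255 genes that spanned at least 2-fold and had a signal at or above the 60th percentile (150) on at least 1 array. The nearest to Entpd1 was Map3k20, a stress-activated kinase gene, at a distance of 0.37, beside a span of 3.04 for Entpd1. It had 133 in TOFA effector, 84.7 in Rap effector, 317 in memory, 211 in control effector and 39.3 in naive cells. Next came Sdc4, a cell surface proteoglycan gene, at 0.55, with 641 in TOFA effector, 361 in Rap effector, 844 in memory, 1002 in control effector and 138 in naive cells. Asph followed at 0.58, with 6.67 in naive cells and between 106 and 311 on the other arrays. All 3 genes were lowest in naive cells and next lowest in Rap effector cells, as Entpd1 was.

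Nt5e had no neighbour as close. The nearest were Atf7 (distance 0.67), Ercc2 (0.77) and Gp5 (0.85), beside a span of 1.94 for Nt5e, and Atf7 and Gp5 were under the floor in both TOFA and control effector cells. Ercc2, a DNA repair and transcription helicase gene, had 120 in TOFA effector, 249 in Rap effector, 315 in memory, 134 in control effector and 295 in naive cells, low in the same 2 arrays as Nt5e. For P2rx7, with a span of 1.06, the nearest were Mcm9 (0.23), Dgcr8 (0.24) and Gbp7 (0.24). For Dpp4, which itself spanned under 2-fold (0.81), they were Rgs12 (0.22), Chmp4b (0.27) and F2r (0.28). All distances rest on 5 arrays, and the smaller ones of P2rx7 and Dpp4 belong to profiles of small span.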

How the data were processed

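Per the labels, 1 Affymetrix array was hybridised for each of 5 groups, so no test between groups was possible. The deposited values are intensity signals per probe set on a linear scale; GCOS and Affymetrix Expression Console are named in the submitters' processing notes, with versions and algorithm not given in the sources used here. On every array their mean after trimming 2% was 500.003. The medians of the arrays spanned 0.66 in log2 units.

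The 64 control probe sets were set aside and the other 45037 quantile normalized. In the 2016 platform annotation 34945 had 1 gene symbol, 932 several and 9160 none; Entrez identifiers matched RefSeq for 34741, with 0 symbols changed. A gene was represented by its probe set of highest mean log2 value. The floor was the 40th percentile. The procedure was tested on simulated data.

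Members and lists were chosen with earlier results of these data known. Named were all members, up to 4 genes per list and comparison (at least 2-fold, brighter array at or above the 60th percentile), marker genes with their signals, and the 3 nearest profiles per member. Panx1, Adora3 and Ampd2 were named after their values were seen. Alternatives were 2 scalings, 3 treatments of low signals and 2 choices of probe sets. Python 3.11.15, numpy 2.4.6 and pandas 2.3.3 were used.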

Additional observations from a re-analysis of the deposited data

How the results depend on the processing

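With 1 array per group no replicate could be left out and no paired analysis was possible, because no group has a second array. Of 168 values of the 4 genes under 7 alternatives, 162 stayed on the same side of 2-fold, and no called difference changed sign; all 42 values of P2rx7 and all 42 of Dpp4 stayed under 2-fold. The 6 others all came from averaging the probe sets of Nt5e or Entpd1. Averaging also brought the members past 2-fold to 1 in control effector against naive cells, 0 in Rap against control effector cells and 0 in TOFA against Rap effector cells. It gave 3.08% of all genes past 2-fold for TOFA against control effector cells, and 3 list genes each in the TOFA and Rap comparisons with control effector cells and in TOFA against Rap effector cells. A floor at the 20th percentile raised the share of all genes to 14.8% in TOFA and 16.3% in Rap cells against control effector cells and 14.9% for TOFA against Rap, with 9, 12 and 11 list genes. A floor at the 60th percentile lowered them to 2.43%, 3.11% and 2.60%, with 3, 2 and 2 list genes, and an added constant in place of the floor gave 3 list genes for TOFA against control effector cells. The floor acts on dim genes by construction; the cause of the other changes was not tested. In memory against naive cells, 1645 genes were higher and 542 lower, against 2075 and 344 with the values as deposited and 1360 and 1235 with arrays scaled to equal medians. In memory against control effector cells the splits were 1932 and 1873, 2601 and 1453, and 1498 and 2867 in the same order. Scaling to equal medians shifted the median of all genes by -0.31 and -0.28 in these comparisons, and there Nt5e in memory minus naive cells was -0.07, and Entpd1 in memory minus control effector cells -0.07, both under 2-fold. Signals near the floor, such as those of Nt5e on its dimmer probe sets, allow no order.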
